A study of Mus musculus with 10 samples.

Results

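The genes described here encode the enzymes that put methyl groups on lysines of histones and other proteins, or take them off. They were chosen by name, as the protein-coding genes whose symbols begin with Kmt, Kdm or Setd followed by a digit. There were 34 of them among the 52097 genes of the table, 16 named as methyltransferases and 18 as demethylases. The samples were haematopoietic stem cells sorted from mouse bone marrow, about 5000 cells each, and their RNA was sequenced in bulk. The sort kept lineage-negative, Sca-1+, c-Kit+, CD48- and CD150+ cells. The Dhx16 knockout group had 5 libraries, titled Dhx16_CKO with the genotype label KO, and the control group had 5 libraries, titled Dhx16_fl with the genotype label WT. DHX16 is a DEAH-box helicase of the spliceosome, which acts before the first step of splicing. The titles point to a conditional deletion of a floxed gene, but the labels used here name neither the Cre driver nor the age of the mice, and do not say whether each sample is a different animal. Every p-value therefore measures the spread between these samples, which may be partly technical.

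Methylation of histone tails marks the state of a gene. KMT2 and SETD1 enzymes methylate lysine 4 of histone H3 at enhancers and promoters, SETD2 methylates lysine 36 in transcribed gene bodies, and KMT5 enzymes methylate lysine 20 of histone H4. Demethylases reverse these marks by different chemistry, the KDM1 enzymes with a flavin cofactor and the JmjC-domain KDM2 to KDM8 proteins with iron and 2-oxoglutarate. In haematopoietic stem cells KMT2A, also called MLL, maintains HOX gene expression, and its fusions drive leukaemia.

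Values are FPKM, a measure that divides fragments by transcript length and by the size of the library. The unit was inferred from the values, because the header names none. Levels set side by side between genes rest on that inference. The authors' mean normalized counts can order genes otherwise, as for Kmt2c and Kmt2d below. Changes are knockout minus control on the log2 (FPKM + 1) scale, from limma fitted over 14007 genes with a mean of 1 FPKM or more, with a Benjamini-Hochberg adjusted p under 0.05 as the threshold for a call. This scale understates the change of genes at a few FPKM. Of the 34 genes 33 were tested, and 32 of these had a mean of 1 FPKM or more in each group. The exception was Kdm4a, with 0.832 FPKM in knockout and 1.45 FPKM in control libraries. The gene not tested, Kdm4d, lay between 0.03 and 0.19 FPKM in knockout and between 0.16 and 0.29 FPKM in control libraries.

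Dhx16 itself was lower in the libraries labelled knockout. It had 10.88, 10.56, 8.8, 7.1 and 10.13 FPKM in the knockout libraries CKO7, CKO8, CKO9, CKO12 and CKO13, against 22.63, 20.53, 14.58, 15.5 and 14.33 FPKM in the control libraries WT2 to WT6 (log2 -0.81, SE 0.16, limma adjusted p = 0.0015), with no overlap between the groups. Library values below are given in these orders. The labels do not say which exons were deleted, so remaining reads may come from outside them.

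Markers of other cell types were measured in all libraries, although the sort should leave out lineage-positive cells. Whether this RNA came from other cells or from the sorted cells was not tested. Summed bone matrix markers, led by Bglap, ranged from 4550 to 47800 FPKM in knockout and from 3180 to 65900 FPKM in control libraries, and none of these 6 genes was called. Granulocyte markers ranged from 8350 to 40800 FPKM in knockout and from 9620 to 74200 FPKM in control libraries, also with none of 6 called. All 6 had a negative change, though, with a median log2 change of -1.32 beside -0.26 for all genes tested. The groups did not overlap for erythroid markers (753 to 1180 FPKM in knockout and 120 to 397 in control, 8 of 8 higher), proliferation genes (324 to 465 and 114 to 183, 3 of 4 higher), macrophage markers (10.6 to 27.5 and 117 to 272, 6 of 6 lower) and megakaryocyte markers (695 to 1370 and 1440 to 2100, 6 of 6 lower). B cell markers summed to 18.6 to 31.8 FPKM in knockout and 29.5 to 48.7 in control libraries, and T cell markers to 6.71 to 7.95 and 8.81 to 11.8. No marker gene of these lists was at 0 in all libraries. Of 8 stem cell sort and identity genes 5 were lower and 0 higher, where 33.8% of all genes tested were lower and 12.6% higher. The 8 include Cd48, whose protein the sort selects against. Slamf1, which encodes CD150, was lower, at 10.9 ± 2.2 FPKM in knockout and 21.5 ± 4.65 FPKM in control libraries (mean ± SD, n = 5 each). Kit had 123 and Ly6a 203 FPKM in knockout libraries, against 154 and 196 FPKM in control libraries. Xist was at most 0.21 FPKM in knockout and 0.46 FPKM in control libraries, while the Y-linked Ddx3y had 23.43 to 40.32 and 23.53 to 30.2 FPKM. In bulk libraries fewer cells of a type and less RNA per cell cannot be told apart, and the part of these markers in the changes below was not tested beyond the fits named beside them.

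Promoters of the genes that the results turn on are shown first, from RefSeq (GRCm38.p6). Kmt2a and Kdm5b were among the 3 genes that fell most, and Kmt5b, which fell, stands beside its relative Kmt5a, the gene with the highest change among the 33. Each run is the 250 bases before the annotated start, written on the gene's strand, at chr9:44881290-44881539 (- strand), chr19:3767171-3767420 (+ strand), chr1:134559928-134560177 (+ strand) and chr5:124439680-124439929 (+ strand). Capitals mark matches, on either strand, to any of 6 motifs searched, the SP and KLF box GGGCGG, the CCAAT box, the ETS site CCGGAAG, the E2F sites TTTCCCGC and TTTGGCGC and the TATA box TATAAA.
Kmt2a: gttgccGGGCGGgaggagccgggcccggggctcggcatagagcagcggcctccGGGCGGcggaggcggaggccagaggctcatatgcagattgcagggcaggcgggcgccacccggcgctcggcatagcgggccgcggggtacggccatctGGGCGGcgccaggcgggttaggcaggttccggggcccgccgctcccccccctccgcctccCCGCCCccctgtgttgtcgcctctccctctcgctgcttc
Kmt5b: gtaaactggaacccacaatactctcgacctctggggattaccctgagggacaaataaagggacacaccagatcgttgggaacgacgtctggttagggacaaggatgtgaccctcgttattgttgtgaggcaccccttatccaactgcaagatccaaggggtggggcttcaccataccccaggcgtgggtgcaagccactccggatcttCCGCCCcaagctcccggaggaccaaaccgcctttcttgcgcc
Kdm5b: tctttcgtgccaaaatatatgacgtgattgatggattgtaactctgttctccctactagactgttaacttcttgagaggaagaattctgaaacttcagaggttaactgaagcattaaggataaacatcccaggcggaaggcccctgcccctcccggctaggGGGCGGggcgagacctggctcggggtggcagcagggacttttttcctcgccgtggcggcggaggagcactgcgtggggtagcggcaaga
Kmt5a: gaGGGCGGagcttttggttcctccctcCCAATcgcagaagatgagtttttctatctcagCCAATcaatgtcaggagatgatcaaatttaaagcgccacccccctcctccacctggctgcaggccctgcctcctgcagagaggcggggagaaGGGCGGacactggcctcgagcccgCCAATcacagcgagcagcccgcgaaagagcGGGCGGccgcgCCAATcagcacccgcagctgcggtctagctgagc
The table held a promoter for 26 of the 34 genes, taken as the first listed start. All 4 of these windows were without a TATA box, and Kmt2a had 4 GGGCGG matches, Kdm5b 1, Kmt5b 1 and Kmt5a 3. Kmt5a also had 4 CCAAT boxes, which the other 3 windows lacked. Over the 26 genes 14 held GGGCGG and 10 CCAAT, against 32.9% and 34.5% of all 27025 promoters. Among the 6 promoters of genes called lower under every scaling tried (described below) 5 held GGGCGG and 0 held CCAAT, and among the 19 of other tested genes 9 held each, a difference that was not tested. The promoter without GGGCGG was that of Setd7, the other of the 3 genes that fell most, whose window is not printed above. The other motifs were in few of the 26 promoters, with ETS in 4 (7.05% of all promoters), TTTCCCGC in 1 (0.929%), TATAAA in 1 (13%) and TTTGGCGC in 0 (0.437%). The median GC content was 59.4% in the 26 and 52.0% in all promoters. It was 66.0% in the 6 promoters of genes lower under every scaling and 59.2% in the 19 of other tested genes.

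With the deposited values, most of these genes had less RNA in the knockout, with a median of -0.36 that was -0.06 under median-of-ratios scaling. As deposited, 17 of 33 were called lower and 0 higher, where 33.8% of all genes tested were called lower and 12.6% higher, together 46.4%. The median change was -0.36 for the 33 genes and -0.26 for all genes tested. A negative change was found for 28 of the 33, and for 9486 of all 14007 genes tested. Of the 33 genes 23 lay below the all-gene median. The 2 groups did not overlap, with the knockout lower, for 15 of the 33 genes, against 24.0% of all genes tested, and with the knockout higher for 0, against 7.45%. Of the methyltransferases 8 of 16 were called lower, with a median of -0.34, and of the demethylases 9 of 17, with a median of -0.48. The FPKM of all 34 genes summed to 404, 411, 433, 344 and 390 in the knockout libraries and to 565, 518, 485, 535 and 489 in the control libraries.

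How many genes fell depended on how the libraries were scaled to each other, and 8 were called lower under the deposited values and all 4 other scalings tried. These were Kmt2a, Setd7, Kdm5b, Kmt5b, Kdm4b, Kdm1b, Kmt2c and Kdm3b, and 12.4% of all genes tested met the same condition. All scalings act on the same values, so the calls under them are not independent of each other. With median-of-ratios scaling 1797 of all genes tested were lower, and 1741 were lower under every scaling. Exons of Kmt2a, Setd7, Kmt5b, Kdm1b, Kmt2c and Kdm3b overlap those of another gene on the opposite strand, and no strand setting was stated. None of the 33 was called higher under every scaling, as 9.10% of all genes tested were. The median change of all genes tested was -0.26 as deposited, -0.14 with upper-quartile, -0.38 with equal-total, 0.06 with median-of-ratios scaling and 0.04 when shifted by 0.37 to the authors' fold changes. The share of higher genes among all called genes was 27.2%, 41.3%, 18.2%, 67.6% and 64.6% in the same order. Under the last 2 of these scalings, 8 of the 33 were lower and 4 higher, namely Kmt5a, Setd3, Setd5 and Setd6. In the authors' deposited table, of the 34 genes 7 were lower and 6 higher, where 11.5% and 17.1% of 23405 genes were. The median log2 fold change there was 0.01 for the 34 and -0.17 for the 23405, a larger set of genes than the 14007 fitted here. In that table the family's median thus lay above that of all genes. The 7 were the 8 named above without Kdm4b, and the 6 were Kmt5a, Setd3, Setd5, Setd6, Kdm2b and Kdm5c. No gene of the 34 was called in opposite directions by the deposited values and that table.

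**Figure D1:**
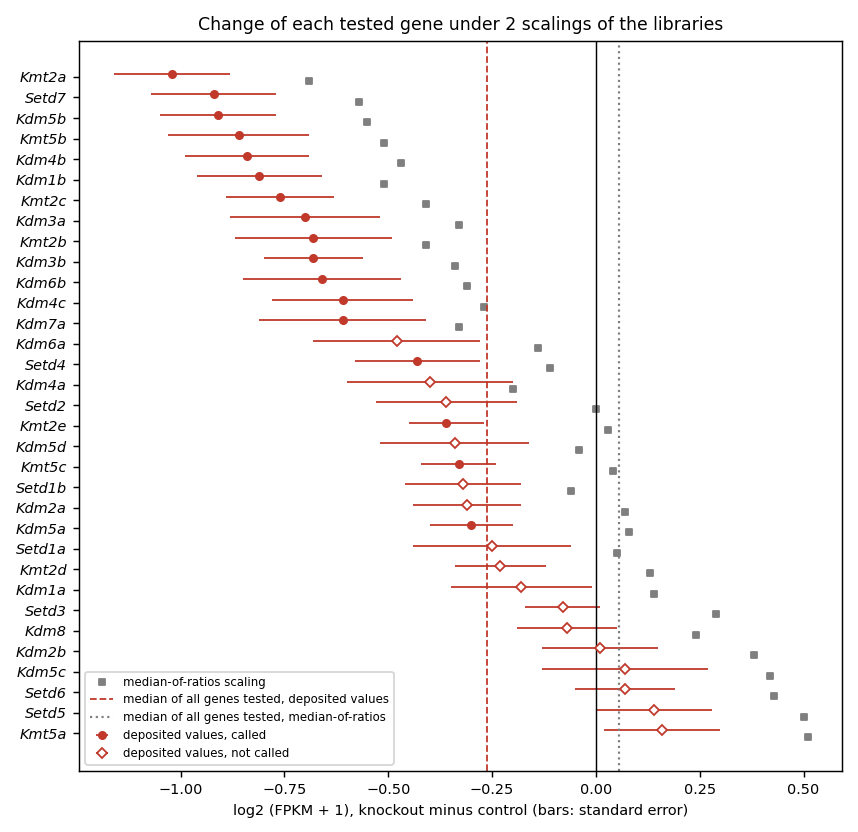
Change of each of the 33 tested genes, knockout minus control on the log2 (FPKM + 1) scale, with the deposited values (red, bars are standard errors, filled where the adjusted p was under 0.05) and with median-of-ratios scaling (grey). Dashed and dotted lines mark the median of all genes tested under each scaling, -0.26 and 0.06. Kmt2a, Setd7 and Kdm5b lie farthest to the left under both, and Kmt5a and Setd5 farthest to the right.

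Among the methyltransferases of lysine 4 of histone H3, Kmt2a and Kmt2c fell under every scaling and Kmt2d did not. Kmt2a (ENSMUSG00000002028, mm10 chromosome 9, 44803355 to 44881296) had 5.24, 4.07, 5.21, 4.3 and 3.17 FPKM in knockout libraries, against 10.54, 10.04, 9.1, 11.29 and 8.59 FPKM in control libraries. All knockout libraries were below all control libraries, with means of 4.4 ± 0.865 and 9.91 ± 1.09 FPKM, a ratio of 0.444 (log2 -1.02, SE 0.14, limma adjusted p = 0.000166). Kmt2c, a methyltransferase of enhancers, had 9.72, 8.14, 8.24, 6.05 and 8.03 FPKM in knockout libraries, against 14.7, 13.97, 11.92, 16.12 and 14.67 FPKM in control libraries. Its groups did not overlap either (log2 -0.76, SE 0.13, limma adjusted p = 0.000637). Kmt2d, the close relative of Kmt2c, had 10.59, 9.53, 10.64, 11.43 and 8.66 FPKM in knockout libraries, against 13.38, 12.56, 11.49, 12.17 and 10.71 FPKM in control libraries. These overlapped, and its change of -0.23 was not called (limma adjusted p = 0.101), with a positive sign under median-of-ratios scaling (0.13), the shift to the authors' fold changes (0.11) and in the authors' deposited table (0.19).

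Kmt2b, the close relative of Kmt2a, averaged 1.87 ± 0.508 FPKM in knockout and 3.66 ± 1.28 FPKM in control libraries (log2 -0.68, limma adjusted p = 0.013). The authors' deposited table gave it a log2 fold change of 0.21, so the sign of its change differs between the 2 sets of values. Setd1a and Setd1b, which supply most methylation of this lysine at promoters, averaged 3.1 and 1.75 FPKM in knockout libraries, against 3.84 and 2.44 FPKM in control libraries. Neither was called (limma adjusted p = 0.297 and 0.076), although the libraries of Setd1b did not overlap. Kmt2e, a family member without known catalysis that is the most abundant of the 34, averaged 54.7 ± 3.96 FPKM in knockout and 70.1 ± 4.37 FPKM in control libraries (log2 -0.36, limma adjusted p = 0.00615). Its call was lost under upper-quartile scaling, and its change was 0.03 and 0.01 under median-of-ratios scaling and the shift to the authors' fold changes.

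Subunits and partners of the KMT2 and SETD1 complexes, not all of them shared between the complexes, included higher and lower genes. Of 14 tested 5 were higher and 2 lower, with a median change of 0.00, where 12.6% of all genes tested were higher and 33.8% lower. Dpy30, a core subunit, had 81 ± 7.05 FPKM in knockout and 55.1 ± 13.4 FPKM in control libraries (log2 0.57, limma adjusted p = 0.00675) and was higher under every scaling. Rbbp5, another core subunit, had 24.6 ± 4.46 and 16.9 ± 2.01 FPKM and was called higher with the deposited values, but not under every scaling. Hcfc2, related to the host cell factor HCFC1, was lower, at 6.79 ± 1.07 FPKM in knockout and 9.84 ± 1.15 FPKM in control libraries. Of 10 genes that KMT2A is known to maintain, Hox genes among them, 9 were tested and 9 were lower, 4 of them under every scaling, with a median of -0.70. Of all genes tested 33.8% were lower and 12.4% lower under every scaling, with a median of -0.26. Hoxa7 had 7.1 ± 1.92 FPKM in knockout and 14.4 ± 1.06 FPKM in control libraries, and Hoxb5 1.6 ± 0.205 and 3.6 ± 0.389 FPKM, though each overlaps an antisense transcript and the strand setting was not stated.

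Of the 3 KMT5 genes, Kmt5b and Kmt5c were lower and Kmt5a was not called. Kmt5b, which adds further methyl groups to lysine 20 of histone H4, had 7.51, 7.8, 8.36, 4.88 and 8.18 FPKM in knockout libraries, against 16.45, 15.13, 10.79, 17.08 and 11.59 FPKM in control libraries (log2 -0.86, SE 0.17, limma adjusted p = 0.00146). The groups did not overlap. Kmt5c, which has the same activity, had 34.4 ± 3.03 FPKM in knockout and 43.5 ± 0.909 FPKM in control libraries (log2 -0.33, limma adjusted p = 0.00826), with a change of 0.04 under median-of-ratios scaling. Kmt5a, the enzyme that adds the first methyl group and acts in mitosis, had 9.57, 13.15, 9.25, 9.96 and 12.13 FPKM in knockout libraries, against 8.57, 12.52, 8.45, 8.46 and 10 FPKM in control libraries. The groups overlapped (log2 0.16, limma adjusted p = 0.37), and the gene was called higher under median-of-ratios scaling (0.51, adjusted p = 0.0134) and in the authors' deposited table (0.64, adjusted p = 0.000921).

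Setd7 fell by the second largest amount. This enzyme, which methylates histone H3 and many other proteins, had 4.9, 4.27, 6.28, 5.54 and 5.41 FPKM in knockout libraries, against 15.33, 11.52, 10.23, 8.87 and 9.06 FPKM in control libraries. The groups did not overlap, and the ratio of means was 0.48 (log2 -0.92, SE 0.15, limma adjusted p = 0.000622). Setd2 had 12.52, 13.65, 14.89, 7.34 and 14.94 FPKM in knockout libraries, against 19.19, 14.54, 15.44, 16.3 and 15.33 FPKM in control libraries, and was not called (log2 -0.36, limma adjusted p = 0.104). Setd4 averaged 4.07 FPKM in knockout and 5.82 FPKM in control libraries (log2 -0.43, limma adjusted p = 0.0322), a call that was lost without any 1 of CKO7, CKO8, CKO9, CKO12, WT2, WT4 and WT5. That call was also lost under upper-quartile scaling (-0.31), median-of-ratios scaling (-0.11) and the shift to the authors' fold changes (-0.13). The authors' deposited table gave Setd4 a log2 fold change of -0.01. Setd3, whose protein methylates a histidine of actin, averaged 24.9 and 26.4 FPKM, Setd5 14.2 and 12.6 FPKM, and Setd6, whose protein methylates a subunit of NF-kB, 19.4 and 18.5 FPKM in knockout and control libraries. These 3 were not called with the deposited values, and were called higher under median-of-ratios scaling (0.29, 0.50 and 0.43).

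**Figure D2:**
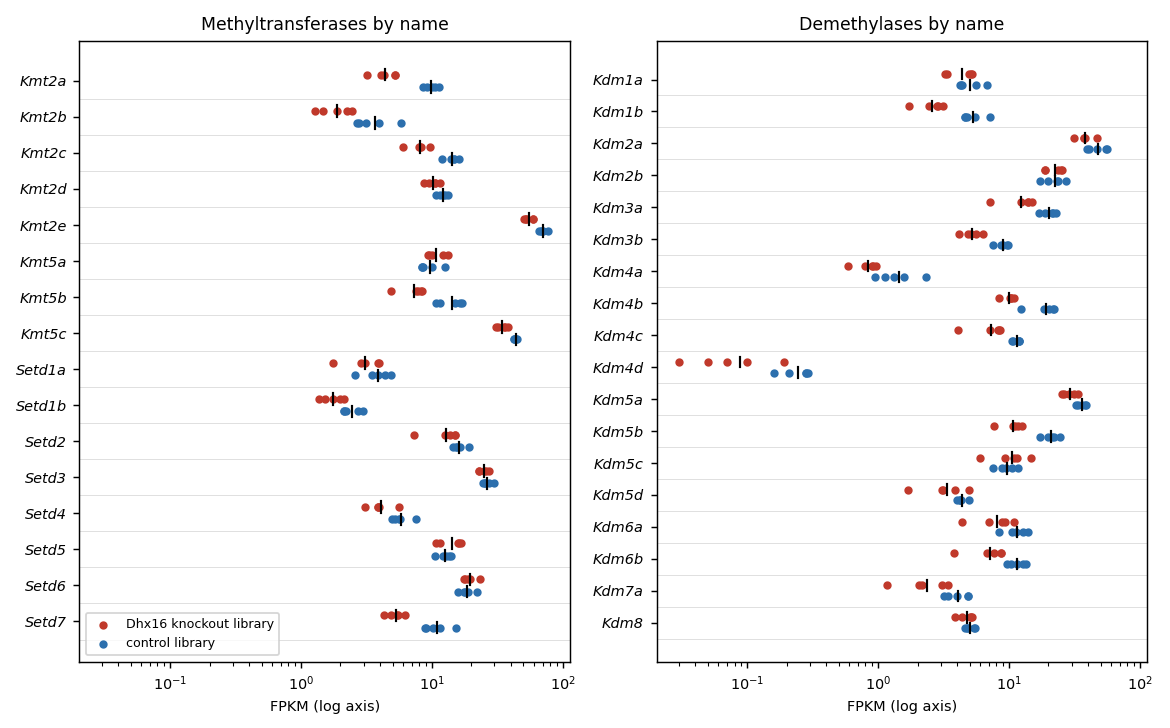
FPKM of each gene in each library on a log axis, with the 5 Dhx16 knockout libraries in red above the 5 control libraries in blue and the group means as black bars. Kmt2a, Kmt2c, Setd7, Kdm5b and Kdm1b show no overlap between the groups, while Kmt5a, Setd5, Setd6, Kdm2b and Kdm5c overlap.

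Among the demethylases of lysine 4, Kdm5b and Kdm1b were lower and their relatives Kdm5c and Kdm1a were not called. Kdm5b had 12.47, 10.68, 11.65, 7.62 and 11.19 FPKM in knockout libraries, against 24.35, 21.25, 17.18, 21.86 and 20 FPKM in control libraries. The groups did not overlap, and the ratio of means was 0.512 (log2 -0.91, SE 0.14, limma adjusted p = 0.000347). Kdm5c, on the X chromosome, had 11.55, 10.88, 14.7, 5.95 and 9.37 FPKM in knockout libraries, against 11.76, 10.61, 7.54, 9.5 and 8.88 FPKM in control libraries (log2 0.07, limma adjusted p = 0.781). Its change was -0.06 under equal-total scaling and 0.42 under median-of-ratios scaling, and it was called in the authors' deposited table (0.69, adjusted p = 0.0043). Kdm5a, the most abundant of the 4, averaged 29.1 ± 3.45 FPKM in knockout and 35.9 ± 2.78 FPKM in control libraries (log2 -0.30, limma adjusted p = 0.0341). That call was lost under 3 of the other scalings and without any 1 of CKO8, CKO9, CKO12, WT2, WT4 and WT5. The Y-linked Kdm5d averaged 3.34 and 4.34 FPKM and was not called.

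Kdm1b had 2.82, 2.88, 3.13, 1.71 and 2.44 FPKM in knockout libraries, against 7.1, 4.62, 4.8, 5.47 and 4.58 FPKM in control libraries (log2 -0.81, SE 0.15, limma adjusted p = 0.00133). The groups did not overlap, and the overlapping gene is Dek. Kdm1a, which encodes LSD1, a demethylase that works with CoREST and the GFI repressors in blood cells, had 3.34, 4.93, 5.09, 3.25 and 5.21 FPKM in knockout libraries, against 5.61, 4.27, 6.79, 4.22 and 4.35 FPKM in control libraries, and was not called (log2 -0.18, limma adjusted p = 0.403). Of 13 CoREST and GFI partner genes of KDM1A 7 were lower and 1, the deacetylase gene Hdac1, was higher, at 135 FPKM in knockout and 104 FPKM in control libraries. The largest changes in that list were those of Gse1 (5.48 ± 1.44 FPKM in knockout and 11.7 ± 2.63 in control), Rcor2 (1.45 ± 0.543 and 3.61 ± 0.942) and Zmym2 (8.77 ± 2.07 and 15 ± 2.42), and the median of the list was -0.50. Of the 13 genes 7 lay below the all-gene median of -0.26, and of all genes tested 33.8% were lower and 12.6% higher. Gse1 overlaps Gins2 on the opposite strand.

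The demethylases of lysine 9, KDM3 and KDM4, were lower as far as they were called. Kdm4b had 10.35, 10.12, 10.94, 10.41 and 8.36 FPKM in knockout libraries, against 21.93, 18.61, 12.35, 21.64 and 20.36 FPKM in control libraries, with no overlap (log2 -0.84, SE 0.15, limma adjusted p = 0.00101). Its log2 fold change in the authors' deposited table was -0.39 and was not called there (adjusted p = 0.11). Kdm3b had 5.15, 4.88, 5.55, 4.16 and 6.34 FPKM in knockout libraries, against 8.7, 7.52, 9.68, 9.73 and 9.02 FPKM in control libraries (log2 -0.68, SE 0.12, limma adjusted p = 0.00101). Kdm3a averaged 12.4 ± 3.11 FPKM in knockout and 20.3 ± 2.4 FPKM in control libraries, and Kdm4c 7.28 ± 1.88 and 11.4 ± 0.664 FPKM. Both were called with the deposited values (log2 -0.70 and -0.61, limma adjusted p = 0.00687 and 0.0106) and not under median-of-ratios scaling (-0.33 and -0.27). Kdm4a was near the lower limit of the genes tested and was not called (log2 -0.40, limma adjusted p = 0.127).

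The remaining demethylases gave smaller or less certain changes. Kdm6b, a demethylase of lysine 27 that inflammatory signals induce, had 8.63, 6.74, 3.77, 8.73 and 7.71 FPKM in knockout libraries, against 9.59, 13.49, 11.48, 12.78 and 10.32 FPKM in control libraries (log2 -0.66, SE 0.19, limma adjusted p = 0.0135). The groups did not overlap, but the call was lost under upper-quartile scaling (limma adjusted p = 0.0721). It was also lost under median-of-ratios scaling and the shift to the authors' fold changes (limma adjusted p = 0.27 and 0.197). The same held with the marker covariates, without CKO8, WT3 and WT5, and in the authors' deposited table. Kdm6a, the X-linked enzyme of the same mark also called UTX, averaged 8.07 ± 2.46 FPKM in knockout and 11.4 ± 2.17 FPKM in control libraries and was not called (limma adjusted p = 0.0703). Its Y-linked homologue Uty had 6.93 ± 1.41 and 9.92 ± 0.756 FPKM and was called lower. Kdm7a averaged 2.38 and 4.07 FPKM (log2 -0.61, limma adjusted p = 0.0231), a call lost without WT3 or WT5, under 3 of the 4 other scalings, without the filter on low values, with the marker covariates and in the authors' deposited table. The KDM2 demethylases of lysine 36 were not called. Kdm2a averaged 38.2 ± 5.56 FPKM in knockout and 47.6 ± 7.87 FPKM in control libraries, and Kdm2b, whose protein brings a Polycomb complex to CpG islands, 22.3 ± 3.16 and 22.3 ± 3.88 FPKM. Kdm8 averaged 4.73 and 5.01 FPKM and was not called.

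Because the ratio of 2 genes within a library does not depend on how libraries are scaled, related genes were also compared as ratios. Of 13 pairs 5 passed an exact two-sided permutation test after Benjamini-Hochberg adjustment over the 13, and 6 had an unadjusted p under 0.05. How often pairs of other genes would pass was not tested, and 31.5% of all genes tested had groups without overlap. The smallest p that 5 against 5 libraries allow is 0.00794. The ratio of Kdm5b to Kdm5c was 1.08, 0.982, 0.793, 1.28 and 1.19 in knockout libraries, against 2.07, 2, 2.28, 2.3 and 2.25 in control libraries. Control libraries thus kept a narrow range, all knockout libraries lay below it, and the log2 difference was -1.05 (exact permutation p = 0.00794, adjusted p = 0.0258). The ratio of Kdm5a to Kdm5b was 2.71, 2.71, 2.19, 3.44 and 2.78 in knockout libraries, against 1.57, 1.58, 2.08, 1.78 and 1.63 in control libraries, again without overlap (log2 difference 0.67, exact permutation adjusted p = 0.0258). Both of these pairs contain Kdm5b, so they are not independent.

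The ratio of Kmt2c to Kmt2d was 0.918, 0.854, 0.774, 0.529 and 0.927 in knockout libraries, against 1.1, 1.11, 1.04, 1.32 and 1.37 in control libraries. By FPKM Kmt2c was thus below Kmt2d in all knockout libraries and above it in all control libraries (log2 difference -0.59, exact permutation adjusted p = 0.0258). The authors' mean normalized counts over all libraries were 1090 for Kmt2c and 3210 for Kmt2d, with longest transcripts of 14967 and 19823 bases. The order of the 2 genes therefore rests on the FPKM values. Their log2 fold changes in the authors' deposited table, -0.39 and 0.19, had the same direction as the change of the ratio. The ratio of Kdm2a to Kdm2b lay between 1.54 and 1.98 in knockout and between 1.98 and 2.36 in control libraries, touching at 1.98 to 3 digits without overlap (log2 difference -0.32, exact permutation adjusted p = 0.0258). The ratio of Kdm1a to Kdm1b had overlapping groups, at 1.18, 1.71, 1.63, 1.9 and 2.14 in knockout libraries and 0.79, 0.924, 1.41, 0.771 and 0.95 in control libraries (log2 difference 0.83, exact permutation adjusted p = 0.0413). Kmt5b to Kmt5c missed the threshold (log2 difference -0.61, exact permutation adjusted p = 0.0516). The other 7 ratios, among them Kmt2a to Kmt2b, Kdm3a to Kdm3b and Kdm6a to Kdm6b, had log2 differences between -0.38 and 0.20 and exact permutation adjusted p from 0.295 to 0.841. For Kmt2a to Kmt2b the log2 difference was -0.24. The authors' deposited table set these 2 genes farther apart, at -0.58 for Kmt2a and 0.21 for Kmt2b, and the cause of this gap was not tested. Without any 1 of WT2, WT3, WT5 or WT6 no pair passed, and without CKO12 3 pairs did. With 4 against 5 libraries there are 126 assignments and p moves in steps of 0.00794, so these counts turn on 1 step. The 4 pairs without overlap had an exact permutation p of 0.00794 or 0.0159 in each of the 10 fits and an adjusted p of at most 0.0516, and their log2 differences stayed between -1.12 and -0.95 for Kdm5b to Kdm5c, 0.59 and 0.75 for Kdm5a to Kdm5b, -0.65 and -0.45 for Kmt2c to Kmt2d, and -0.38 and -0.29 for Kdm2a to Kdm2b.

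**Figure D3:**
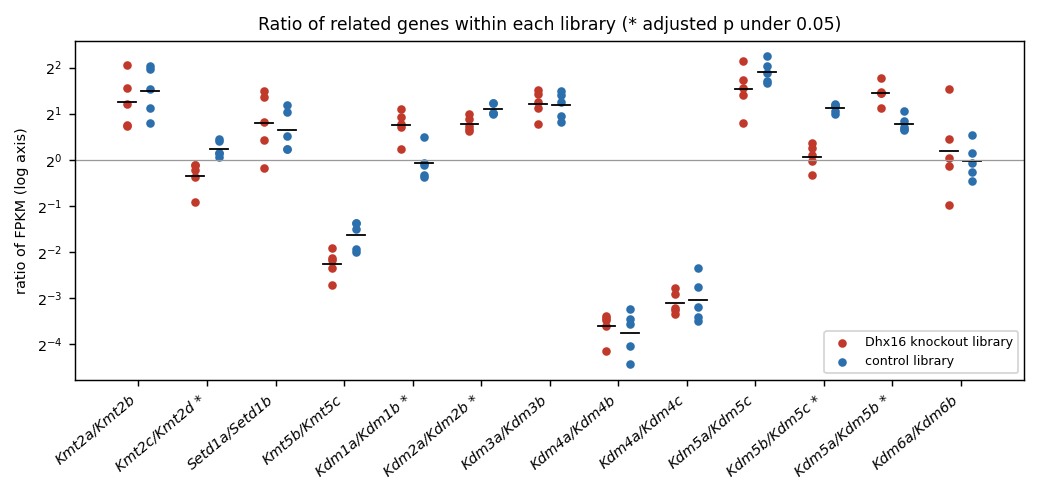
Ratio of the FPKM of 2 related genes in each library on a log axis, with Dhx16 knockout libraries in red left of control libraries in blue, black bars at the means of the log2 ratios, and stars where the exact permutation adjusted p was under 0.05. The Kdm5b to Kdm5c ratio is 2 to 2.3 in the control libraries and 0.793 to 1.28 in the knockout libraries.

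Most of these genes have long transcripts, and over all genes the median change was lower for longer transcripts. Among protein-coding genes tested, the median change was -0.14 in the quartile with the shortest longest-annotated transcripts and -0.37 in the quartile with the longest, of 4698 bases or more. That quartile held 23 of the 33 genes, whose median was -0.48, and 13 of the 23 were called lower, where 43.1% of all genes of the quartile were. The number of introns showed no such trend over all genes, with medians of -0.29 in the quartile with 0 to 3 introns and -0.30 in the quartile with 14 or more, which held 25 of the 33. Kmt2d, with the longest transcript of the 34 at 19823 bases and 54 introns, had a change of -0.23, and Kmt2a, at 16470 bases and 35 introns, had -1.02. The part of transcript length in the changes was not tested.

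**Figure D4:**
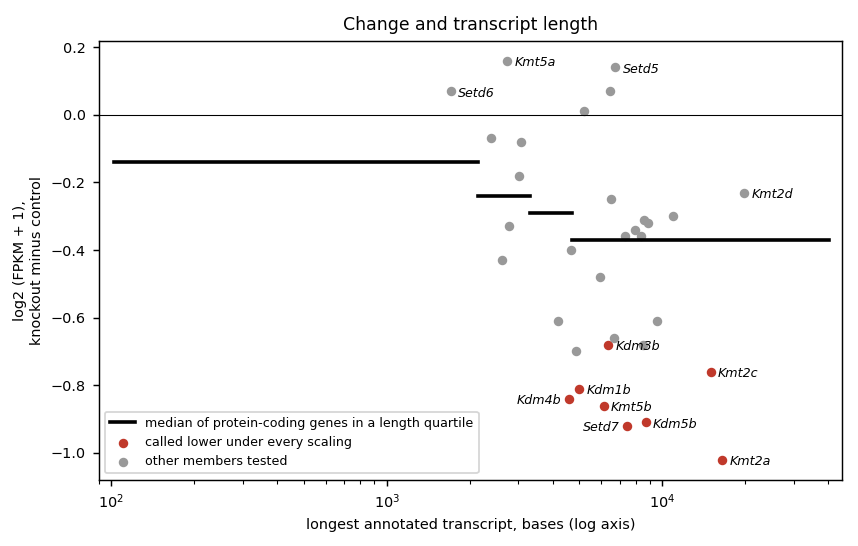
Change of the 33 tested genes against the length of the longest annotated transcript on a log axis, with red points for the 8 genes called lower under every scaling. Black lines give the median of all protein-coding genes tested in each length quartile, which runs from -0.14 to -0.37. All 8 red points lie below these lines, a place largely fixed by their choice as genes called lower.

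The knockout library CKO12 and the control library WT4 were lower in this family than over all genes tested. CKO12 was the lowest of the 5 knockout libraries for 17 of the 33 genes, against 34.2% of all genes tested. Its median deviation from the knockout mean was -0.22 for the 33 and -0.09 for all genes tested (log2). WT4 was the lowest of the 5 control libraries for 11 of the 33, against 19.7% of all genes tested. Its median deviation from the control mean was -0.087 for the 33 and 0.045 for all genes tested. Without CKO12, 15 of the 33 were called lower and 0 higher, where 30.1% of all genes tested were lower. Of the 8 genes lower under every scaling, the change without CKO12 or any other single library ranged from -1.08 to -0.62, and each kept its limma call in all 10 fits with 1 library left out. Without the 2 libraries highest in bone matrix markers, CKO13 and WT6, 16 of the 33 were lower, with a median of -0.44, where 28.6% of all genes tested were lower. Without the 3 highest in granulocyte markers, CKO8, WT3 and WT5, 10 were lower, with a median of -0.43, where 22.6% of all genes tested were lower. With both marker scores as covariates 12 were lower, with a median of -0.45, where 29.1% of all genes tested were lower.

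Enzymes of the same kinds outside the name pattern are given beside the shares over all genes tested, of which 33.8% were lower and 12.6% higher. Of 21 other SET-domain and DOT1 genes 11 were lower and 2 higher, with a median of -0.28 beside -0.26 for all genes tested. Ezh1, the Polycomb methyltransferase of resting cells, had 8.92 ± 0.938 FPKM in knockout and 18.1 ± 2.76 FPKM in control libraries (log2 -0.94, limma adjusted p = 0.000146), lower under every scaling. Prdm16, a stem cell regulator, had 9.29 ± 2.71 and 16.3 ± 1.73 FPKM, and Setmar 2.04 ± 0.198 and 4.06 ± 0.552 FPKM, lower under every scaling only for Setmar. Of 13 other JmjC genes tested 5 were lower and 0 higher, and 0 of them under every scaling, with a median of -0.15. The largest changes there were those of Jmjd1c (14.7 ± 2.48 FPKM in knockout and 23 ± 3.01 in control), Jarid2 (9.74 ± 2.03 and 14.6 ± 2.88) and Jmjd6 (34.6 ± 4.47 and 50.3 ± 8.91), which overlaps Mettl23, as Prdm16 overlaps B230104I21Rik. Of 15 enzymes that make the methyl donor or supply and use 2-oxoglutarate, 4 were higher and 3 lower, with a median of -0.01. Idh1, the cytosolic isocitrate dehydrogenase, had 11 ± 1.62 FPKM in knockout and 27 ± 4.78 FPKM in control libraries (log2 -1.21, limma adjusted p = 8.39e-05). The mitochondrial Idh3a had 91 ± 11 and 46.5 ± 8.42 FPKM (log2 0.96), and Ahcy, which clears the product of methylation, 73.1 ± 6.54 and 39.4 ± 5.92 FPKM (log2 0.88). Under every scaling Idh1 was lower and Idh3a and Ahcy were higher.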

How the data were processed

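The deposited table held 52097 genes and 10 library columns. The WT or CKO in a column's name gave its group, since the numbers differ from those in the titles. The unit of the library columns was taken as FPKM from the values, since per the file headers no unit is named. Per the submitters' processing notes the build was mm10 and the tools were HTSeq, Cufflinks 2.1.1 and Bowtie 0.12.9, with no roles given. Steps in the low values did not give whole reads, so the depth per library is unknown, and the authors' mean normalized counts (59.1 to 3210 for the 33 genes of the family that were tested) are the only measure of it. Those means are a signal per gene over all libraries, as deposited. The deposited log2 fold changes with standard errors, the Wald score and the deposited p-values came from the authors' DESeq2 run, per the file headers. No strand setting was stated, and 13 of the 34 genes overlap exons of another gene in GENCODE M21.

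Genes with a mean of 1 FPKM or more over all 10 libraries were fitted on log2 (FPKM + 1) with limma 3.58.1 (trend and robust options, R 4.3.3), with 2 groups, no covariate and no further scaling. Ratios were tested by enumerating all 252 assignments of libraries. Alternatives were 4 scalings, 2 filters, another pseudocount, plain limma, marker covariates, left-out libraries and the authors' results. Calls under every scaling and the fits without CKO13 and WT6, or without CKO8, WT3 and WT5, were chosen after seeing the data. The genes, lists and pairs were chosen with earlier results of these data known. Every gene of the family is named, and of each list the 3 called genes with the largest change, except 1 that is not reported here, while Hdac1, Kit and Ly6a were named after their values were seen.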

Additional observations from a re-analysis of the deposited data

Results flagged for a closer look

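In 5 of 66 sets of 5 libraries, 1 value lay far from the other 4, where chance gives about 1 in 20 sets. In 4 of the 5 it was the knockout library CKO12, which had 7.12 FPKM for Kdm3a, 4.07 for Kdm4c, 4.88 for Kmt5b and 7.34 for Setd2, each below the other knockout libraries. The other was Kdm4b, at 12.35 FPKM in the control library WT4, below the other control libraries. Without CKO12 the changes were -0.52 for Kdm3a, -0.44 for Kdm4c, -0.74 for Kmt5b and -0.19 for Setd2, and without WT4 that of Kdm4b was -0.97.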

How the results depend on the processing

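No paired analysis was possible because the library columns carry other numbers than the sample titles. Of all genes tested, 3751 were higher and 1797 lower under median-of-ratios scaling, 3445 and 1889 under the shift to the authors' fold changes, and 4001 and 2697 in the authors' results, against 1771 and 4731 with the deposited values. Of the 33 genes of the family 4 were higher and 8 lower under each of the first 2, 6 and 7 in the authors' results, and 11 lower under upper-quartile scaling. With a filter of 10 FPKM in 5 libraries, which leaves 18 of the family, 9 of these and 2182 of all genes were lower. The marker covariates left 1110 genes higher. Without CKO8, WT3 and WT5, 954 genes were higher and 10 of the family lower. Calls under every scaling were 1741 lower of all genes and 8 of the family.

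With 1 library left out, 1455 to 1927 genes were higher and 4069 to 4720 lower, 14 to 18 of the family were lower and 0 higher, and 0 to 5 ratios passed, a count that turns on 1 step of p, as 4 against 5 libraries give only 126 assignments. Signs turned for several genes. Under median-of-ratios scaling and the shift to the authors' fold changes these were Kdm1a (0.14 and 0.13), Kdm2a (0.07 and 0.05), Kdm5a (0.08 and 0.06), Kdm8 (0.24 under both), Kmt2d (0.13 and 0.11), Kmt2e (0.03 and 0.01), Kmt5c (0.04 and 0.03), Setd1a (0.05 and 0.04) and Setd3 (0.29 and 0.27, called). In the authors' results they were Kdm1a (0.21), Kdm2a (0.06), Kdm5d (0.14), Kdm8 (0.27), Kmt2b (0.21, against a called -0.68), Kmt2d (0.19), Kmt2e (0.06), Kmt5c (0.12), Setd1a (0.29), Setd1b (0.02), Setd2 (0.02) and Setd3 (0.34, called). Under upper-quartile scaling they were Kdm8 (0.05) and Setd3 (0.06). Kdm2b, Kdm5c and Setd6 turned under equal-total scaling (-0.13, -0.06 and -0.07) and with the covariates (-0.06, -0.08 and -0.01), and Setd6 without CKO8, WT3 and WT5 (-0.09). With a pseudocount of 1 the ratios Kdm3a to Kdm3b and Kdm4a to Kdm4c turned (-0.01 and 0.21). With 1 library left out Kdm2b ranged from -0.08 to 0.08 and Kdm5c from -0.05 to 0.24. The ratios Kdm3a to Kdm3b (-0.05 to 0.15), Kdm4a to Kdm4b (-0.03 to 0.28), Kdm4a to Kdm4c (-0.18 to 0.11), Kdm6a to Kdm6b (-0.13 to 0.49) and Setd1a to Setd1b (-0.03 to 0.39) also crossed 0. Unknown depth limits what can be said of genes at a few FPKM, and the cause of these dependences was not tested.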
